A study of Mus musculus with 15 samples.

Results

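Fatty acid synthesis is described here through 6 genes of the mouse intestine: Me1, Acly, Acaca, Acacb, Fasn and Srebf1. They were chosen by name from the 17185 genes of the count table, and all 6 were in it and passed the filter on low counts in every comparison. Single cells from 5 mice had been sequenced with Seq-Well, a method that isolates cells in small wells and counts messenger RNA molecules by unique molecular identifiers (UMIs). The mice were 6 months old and carried Lgr5-eGFP-IRES-CreERT2, an allele that places a green fluorescent protein and an inducible Cre recombinase under the Lgr5 gene of intestinal stem cells, so the controls carried it too. The control group of 2 mice ate a purified diet with 10% of kcal from fat, and the high fat group of 3 mice a diet with 60% of kcal from fat. Each mouse gave cells of the colon and of the small intestine, proximal and distal apart, which makes 15 libraries and 18919 cells. Where cells of several types are summed, fewer cells of a type and less RNA per cell cannot be told apart.

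Cytosolic fatty acid synthesis starts from citrate that leaves the mitochondrion. ATP citrate lyase (Acly) splits it to acetyl-CoA, acetyl-CoA carboxylase 1 (Acaca) turns acetyl-CoA into malonyl-CoA, and fatty acid synthase (Fasn) builds palmitate from malonyl-CoA with electrons from NADPH. Malic enzyme 1 (Me1) makes NADPH in the cytosol from malate. Acetyl-CoA carboxylase 2 (Acacb) sits on the outer mitochondrial membrane, where its malonyl-CoA is known to restrain the entry of fatty acids for oxidation. Srebf1 encodes SREBP-1, a transcription factor of lipid synthesis genes. Enterocytes of the proximal small intestine take up most dietary fat.

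The authors' call of a stem cell, which equalled at least 1 UMI of Lgr5 or eGFP in all 18919 cells, split the cells into 4618 stem-called and 14301 other cells. Counts were summed per library over each set and are given as CPM, the UMIs of a gene scaled to the same total in every sum. Sums ranged from 321496 to 13694552 UMIs (27 to 617 cells) for stem-called cells and from 1699260 to 28652200 UMIs for other cells. The call was carried by 8.79% of 990 T or B cell-like cells, which should lack Lgr5 (median 4486 UMIs), against 25.3% of the rest (median 13672 UMIs). In the proximal libraries, 9 measured genes of a stem cell list summed to 8004 to 10515 CPM in stem-called cells and to 2632 to 4096 CPM in other cells. The list includes Lgr5, which the call itself uses, so part of this difference was set by the call. Among the proximal libraries that of high fat mouse 1 stood apart, with 82.1% of its cells in clusters without a name and a median of 4757 UMIs. The proximal diet results of Me1, and of Acacb in stem-called and other cells, are also given without it. In the colon, clusters without a name held 90.0 and 56.5% of cells in control mice and 49.7, 63.3 and 65.6% in high fat mice. Median UMIs there were lowest in high fat mouse 2 (2723) and next in control mouse 1 (4915). Barcodes shared between libraries marked 37 cells. UMIs were not scaled by transcript length, so levels of different genes were not compared. How many of all genes kept the diets apart without overlap was not counted, so a lack of overlap is given as a description only.

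Me1 and Acacb are the members called in a diet comparison, and the high fat and control libraries of Fasn overlapped in stem-called cells of every organ, so the 250 bases before the start sites of these 3 genes are shown in RefSeq's sequence of GRCm38.p6 (mm10), on the strand of each gene. The capitals mark GGTCAAAG, the core of the direct repeat to which PPAR with RXR is known to bind, letters chosen after the Me1 window had been read.
Me1 (chr9:86695915-86696164, minus strand): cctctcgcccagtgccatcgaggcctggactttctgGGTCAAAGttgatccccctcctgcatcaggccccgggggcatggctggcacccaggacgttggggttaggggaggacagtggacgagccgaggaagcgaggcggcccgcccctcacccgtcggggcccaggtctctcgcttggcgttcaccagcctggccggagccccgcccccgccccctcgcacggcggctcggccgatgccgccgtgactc
Acacb (chr5:114165268-114165517, plus strand): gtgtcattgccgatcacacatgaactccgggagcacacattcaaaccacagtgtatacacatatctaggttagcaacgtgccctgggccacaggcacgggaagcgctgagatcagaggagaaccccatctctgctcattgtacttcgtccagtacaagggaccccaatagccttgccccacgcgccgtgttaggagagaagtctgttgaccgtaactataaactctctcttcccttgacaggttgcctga
Fasn (chr11:120824548-120824797, minus strand): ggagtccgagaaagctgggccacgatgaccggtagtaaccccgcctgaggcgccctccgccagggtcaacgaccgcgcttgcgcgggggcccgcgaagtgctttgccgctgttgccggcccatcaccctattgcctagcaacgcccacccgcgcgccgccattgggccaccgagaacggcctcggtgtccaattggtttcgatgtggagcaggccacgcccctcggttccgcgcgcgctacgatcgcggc
GGTCAAAG stood on the gene's own strand in the Me1 window, its 5′ base 214 bases before the start, and on neither strand in the other windows of the 6 genes (9 windows in all). Among 32851 RefSeq windows of the same length, 0.834% held it on either strand. The sterol response element TCACNCCAC (1.05% of windows), the E-box CACGTG (6.02%) and the antioxidant response core TGACNNNGC (10.2%) were searched on both strands as well and were in no window of the 6 genes. These matches are letters only, and binding was not measured.

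In mm10 with GENCODE vM21, Me1 spans 86581371 to 86695953 on the minus strand of chromosome 9 and overlaps the antisense gene A330041J22Rik, and Acacb spans 114146535 to 114250761 on the plus strand of chromosome 5, so that the RefSeq window above lies at an inner start. Acly (100476353 to 100528000, minus), Acaca (84129672 to 84401651, plus), Fasn (120805846 to 120824547, minus) and Srebf1 (60199089 to 60222581, minus) lie on chromosome 11. The protein-coding gene Gm11437 lies on the other strand within Acaca, and the end of Rai1 overlaps that of Srebf1. Both have counts of their own (4129 and 6197 UMIs over all cells), and whether counting used the strand is not given in the sources used here, so reads of these pairs may not have been told apart.

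Me1, the NADPH-producing member, was higher on the high fat diet in the proximal small intestine, where its stem-called level was 1.19 ± 0.0320 CPM in control mice (SD, n = 2) and 19.4 ± 5.89 CPM in high fat mice (n = 3). By library, stem-called cells held 1.21 and 1.17 CPM on the control diet and 16.3, 26.2 and 15.6 CPM on the high fat diet. T cell-like cells of these libraries held 0 and 0 against 24.2, 86.2 and 71.1 CPM, and the part of RNA from other cells in the stem-called sums was not tested. The stem-called groups did not overlap, and every stem-called high fat sum lay more than 10 times above both controls. By edgeR's quasi-likelihood test with Benjamini-Hochberg adjustment over all genes, the log2 fold change was 4.03 (SE 0.50, adjusted p = 0.00209), and Me1 was the 1 member called there. Of all 12339 genes tested in that comparison 0.122% were called. The ratio of means was 16.3, with 13.4 within the deeper libraries (control mouse 2 and high fat mouse 3) and 17.5 within the shallower ones. Without high fat mouse 1 the call held (4.11, adjusted p = 0.0110). Leaving out control mouse 1 or control mouse 2 ended the call (adjusted p = 0.0703 and 0.112), and each leaves 1 control library assumed to vary like the other groups, at a fold change of 4.03 and 4.01.

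The proximal cells without the stem call carried more Me1 still, at 1.01 and 3.18 CPM in control mice and 46.6, 90.0 and 65.1 CPM in high fat mice. Again the groups did not overlap (log2 fold change 4.97, SE 0.60, adjusted p = 0.00546; 0.0839% of genes called). Without high fat mouse 1 the adjusted p was 0.0327, without control mouse 1 it was 0.157 and without control mouse 2 it was 0.0743. Proximal absorptive-like cells, named from markers of enterocytes, numbered 24, 409 and 348 in the high fat sums. The 24 cells of high fat mouse 1 had a median of 20475 UMIs, against 4757 in its whole library. In absorptive-like cells Me1 reached 125, 170 and 144 CPM on the high fat diet against 1.28 and 3.75 CPM on the control diet. This was its highest level in any cell class of the proximal small intestine and its largest log2 fold change (5.63, SE 0.36, adjusted p = 6.28e-06; 0.729% of genes called), and it passed the test with any 1 mouse left out. In transit-amplifying-like cells, the dividing progenitors, Me1 was at 1.98 and 3.65 CPM against 99.0 and 57.3 CPM (4.57, SE 0.49, adjusted p = 0.000998; 0.291% of genes called). High fat mouse 1 gave no sum there, with 9 such cells where 20 were needed. Of proximal absorptive-like cells, 91.9% of those on the control diet lay in cluster 16 and 92.6% of those on the high fat diet in cluster 10, so the class was filled by different clusters in each diet. Proximal transit-amplifying-like cells were split between clusters 20 (44.8%) and 11 (44.5%) on the control diet and lay mainly in cluster 11 (75.7%) on the high fat diet.

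**Figure D1:**
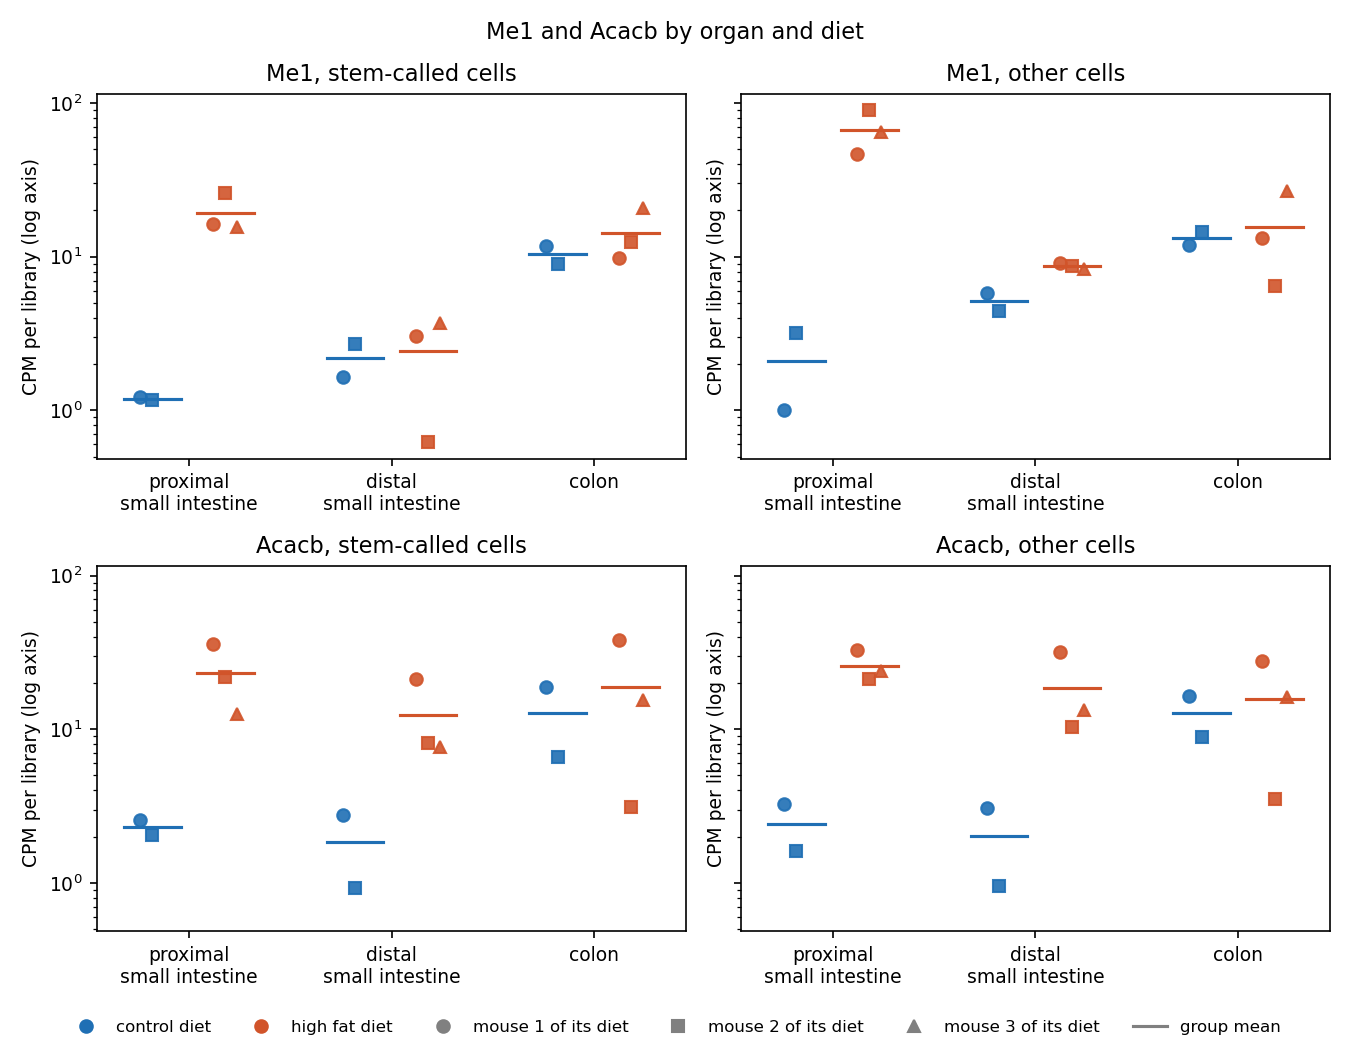
CPM of Me1 and Acacb in each library (log axis) for stem-called and other cells, by organ and diet, with a marker per mouse and a line at the group mean. In the proximal small intestine all high fat libraries lie above both control libraries for both genes; in the distal small intestine this holds for Acacb in both cell sets and for Me1 in other cells, and in the colon for neither gene.

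The rise of Me1 was not seen at this size in the other organs. Distal stem-called cells held 1.65 and 2.72 CPM in control mice and 3.05, 0.622 and 3.68 CPM in high fat mice, which overlap (log2 fold change 0.20, SE 0.50, adjusted p = 1; 0.0081% of genes called). Distal other cells held 5.79 and 4.47 against 9.07, 8.66 and 8.28 CPM; these groups did not overlap, but the difference missed the threshold (0.73, SE 0.52, adjusted p = 1; 0.00699% of genes called). Distal absorptive-like cells held 8.54 and 6.72 against 22.0, 11.7 and 19.5 CPM (1.33, SE 0.35, adjusted p = 0.594; 0.028% of genes called), and distal transit-amplifying-like cells differed by 0.99 (SE 0.52, adjusted p = 1; 0.0618% of genes called). In the colon, Me1 was at 11.8 and 8.97 against 9.81, 12.4 and 20.6 CPM in stem-called cells (0.57, SE 0.46, adjusted p = 1), with overlapping groups, and 0% of genes were called. No gene was called in colon other cells either, where Me1 differed by 0.28 (SE 0.49, adjusted p = 1). At an unadjusted p under 0.05 edgeR had 314 genes in colon stem-called and 492 in colon other cells, and DESeq2 called 0 and 5 genes there and limma voom 0 and 0, Me1 not among them.

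The diet effects of the organs were also set against each other in stem-called cells. The Me1 effect was 3.82 larger on the log2 scale in the proximal than in the distal small intestine (SE 0.68, unadjusted p = 5.44e-05, adjusted p = 0.446) and 3.46 larger than in the colon (SE 0.65, adjusted p = 0.406), so neither difference passed the threshold. Over all genes, edgeR called 0% in each of these 2 comparisons, with 178 and 215 genes at an unadjusted p under 0.05. DESeq2 called 4 and 8 genes, with Me1 among them (adjusted p = 0.00697 and 0.0182), and limma voom 0 in each. Across all settings the adjusted p of the proximal against distal difference ran from 0.00697 to 1. With the mouse as a block, which the shared animals allow, it was 0.0674.

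Acacb, the mitochondrial acetyl-CoA carboxylase, was higher on the high fat diet in transit-amplifying-like and absorptive-like cells of the proximal and the distal small intestine. Absorptive-like cells of the proximal small intestine held 0.855 and 0.815 CPM in control mice and 21.8, 22.4 and 29.1 CPM in high fat mice (log2 fold change 4.84, SE 0.67, adjusted p = 0.00392). In the distal small intestine they held 2.85 and 0.448 against 47.0, 15.97 and 16.1 CPM (4.66, SE 0.70, adjusted p = 0.0496). Transit-amplifying-like cells held 1.48 and 1.74 against 27.5 and 25.6 CPM in the proximal part (3.94, SE 0.51, adjusted p = 0.00347) and 1.84 and 0.404 against 45.8, 17.6 and 19.7 CPM in the distal part (5.40, SE 0.65, adjusted p = 0.00725). None of these groups overlapped. In distal absorptive-like cells the adjusted p rose to 0.228 without control mouse 2 and to 0.100, 0.245 and 0.124 without high fat mouse 1, 2 or 3, and it was 0.0531 with RLE factors, 0.0611 with no scaling factors, 0.0503 with doublets removed, 0.0879 with limma voom and 0.328 with the organ fitted alone. The proximal absorptive-like call was lost without high fat mouse 2 (adjusted p = 0.0551). The proximal and distal transit-amplifying-like calls were lost without control mouse 2 (adjusted p = 0.0913 and 0.640) and without high fat mouse 2 (adjusted p = 0.102 and 0.0678).

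In stem-called cells the Acacb groups did not overlap in either part of the small intestine, yet the difference missed the threshold. Proximal libraries held 2.55 and 2.04 CPM in control mice and 35.6, 21.7 and 12.5 CPM in high fat mice (3.36, SE 0.71, adjusted p = 0.121), and without high fat mouse 1 the fold change was 2.90 (adjusted p = 0.200). Distal libraries held 2.75 and 0.932 against 21.4, 8.09 and 7.67 CPM (3.17, SE 0.85, adjusted p = 1). Other cells held 3.24 and 1.61 against 32.7, 21.2 and 23.8 CPM in the proximal part (3.49, adjusted p = 0.197) and 3.08 and 0.960 against 31.6, 10.3 and 13.3 CPM in the distal part (3.29, adjusted p = 1). Without high fat mouse 1 the edgeR fold change in proximal other cells was 3.28 (adjusted p = 0.464). DESeq2 called Acacb in proximal stem-called cells (adjusted p = 0.000713), in proximal other cells (adjusted p = 0.00026) and in distal other cells (adjusted p = 0.0168). Over the 10 alternative settings that kept all mice it was called in 5 in proximal stem-called cells. The fits with 1 mouse left out are not in that count. In the colon the groups overlapped, at 18.9 and 6.63 against 38.0, 3.11 and 15.5 CPM in stem-called cells (0.82, SE 0.69, adjusted p = 1). High fat mouse 1 had the highest Acacb of its group in stem-called and in other cells of all 3 organs.

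**Figure D2:**
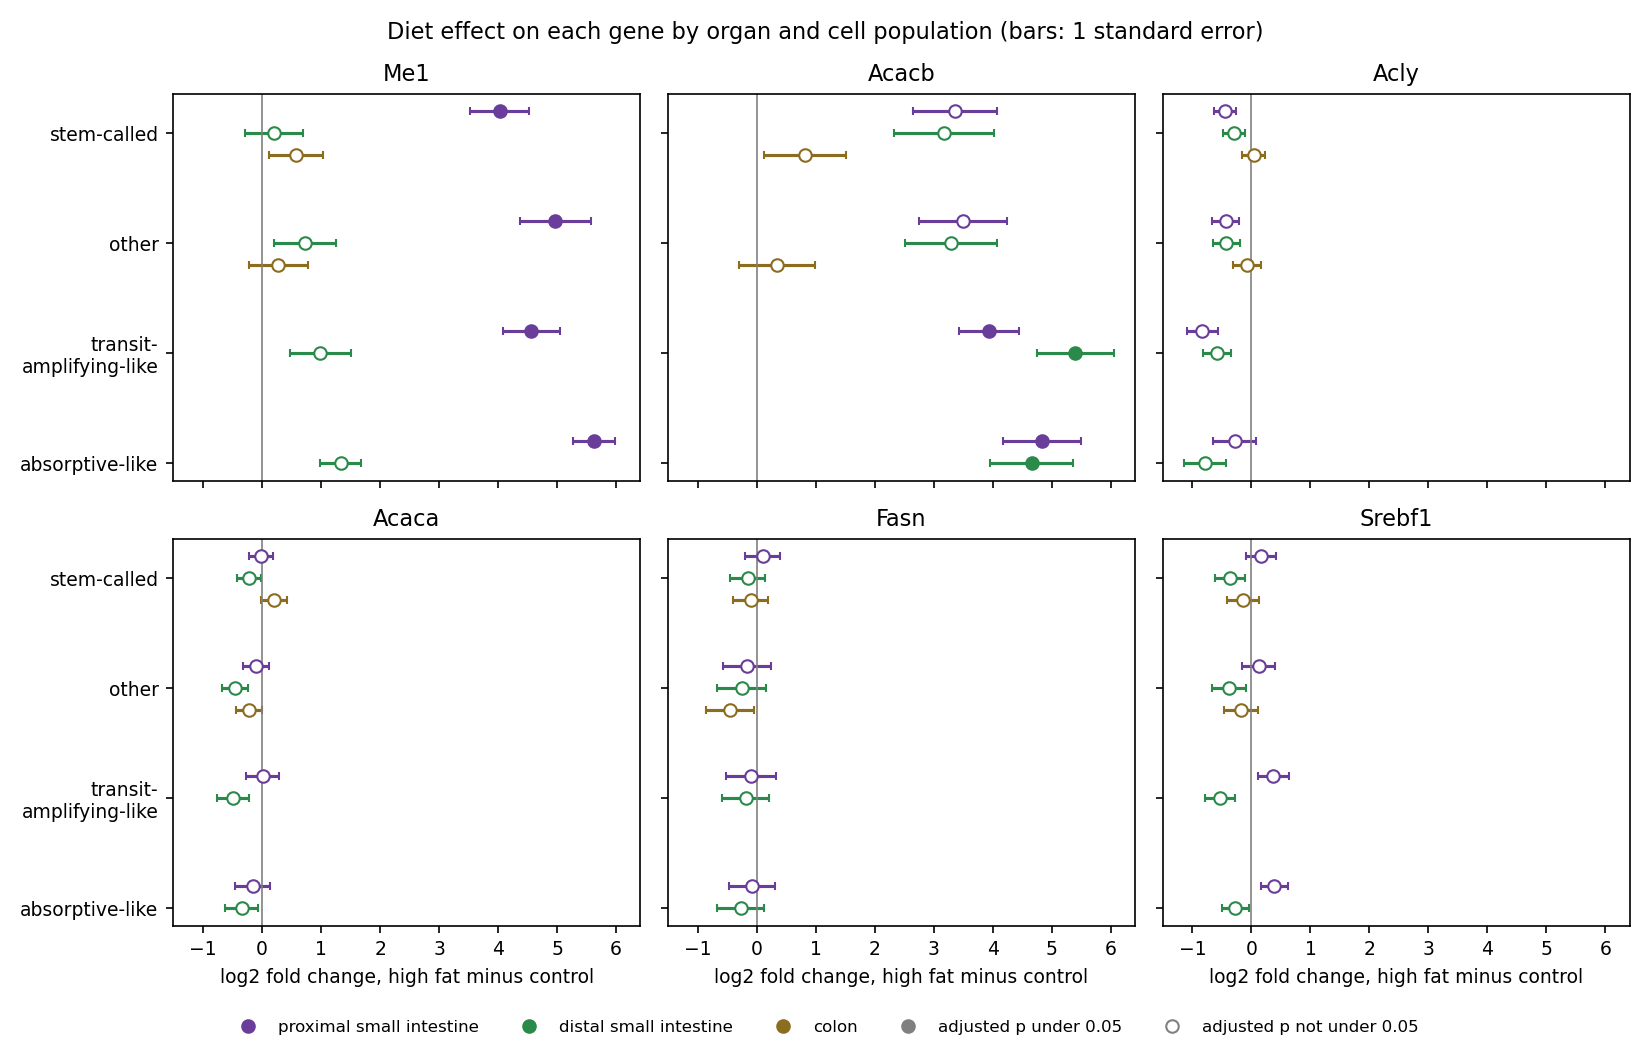
Log2 fold change of each gene, high fat minus control, by cell population (rows) and organ (colours), with bars of 1 standard error and filled points where the adjusted p was under 0.05. Me1 lies between 4.03 and 5.63 in the 4 proximal populations and all are called, Acacb is called in the 4 sums of transit-amplifying-like and absorptive-like cells, and no point of the other 4 genes is filled.

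Acly, which supplies acetyl-CoA, was lower in proximal high fat libraries without passing the test. Stem-called cells held 123 and 153 CPM in control mice and 111, 88.2 and 98.7 CPM in high fat mice, with no overlap (log2 fold change -0.45, SE 0.19, adjusted p = 1). Proximal transit-amplifying-like cells held 125 and 124 against 55.4 and 86.3 CPM (-0.83, SE 0.26, adjusted p = 0.426). Distal stem-called cells held 196 and 179 against 186, 135 and 148 CPM and those of the colon 296 and 240 against 307, 233 and 264 CPM, with overlap in each. Over the 10 diet comparisons the Acly fold change was below 0 in 9 and its unadjusted p was under 0.05 in 4, none with an adjusted p below 0.426.

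The remaining synthesis genes were not called in any of the 10 diet comparisons. Fasn in proximal stem-called cells was at 145 and 85.5 CPM in control mice and 116, 117 and 125 CPM in high fat mice, so the high fat libraries lay between the controls (0.10, SE 0.30, adjusted p = 1). Split by depth, the Fasn ratio of means was 1.47 within the deeper and 0.804 within the shallower proximal libraries, and 1.62 and 0.618 in the distal small intestine, so its direction differed between the depth sets. Each set holds 1 control mouse, so depth and the difference between the control mice cannot be told apart there. Acaca was at 34.0 and 26.7 against 20.2, 31.0 and 35.8 CPM (-0.01, SE 0.21, adjusted p = 1), with overlap. Srebf1 was at 59.3 and 48.7 against 41.2, 71.6 and 63.1 CPM (0.16, SE 0.25, adjusted p = 1), with overlap, and its isoforms were not told apart. In the distal small intestine Srebf1 was lower in all high fat than in all control libraries of stem-called cells, at 79.2 and 84.4 against 51.7, 76.5 and 67.6 CPM. The same held in distal transit-amplifying-like and absorptive-like cells of the same mice. In distal other cells the Srebf1 groups overlapped, at 86.9 and 72.7 against 50.4, 73.0 and 65.7 CPM. Distal stem-called cells held Acaca at 40.2 and 42.5 against 36.4, 29.2 and 42.1 CPM and Fasn at 166 and 88.2 against 126, 78.4 and 143 CPM, with overlap for both. In colon stem-called cells Acaca was at 42.6 and 42.9 against 49.7, 43.5 and 49.8 CPM, Fasn at 228 and 140 against 194, 152 and 153 CPM and Srebf1 at 69.8 and 84.3 against 52.7, 62.2 and 87.3 CPM. Of these 3 genes only Acaca kept the diets apart there, by less than 1 CPM between the nearest libraries. Over the 10 comparisons the fold changes ran from -0.46 to 0.10 for Fasn, from -0.50 to 0.20 for Acaca and from -0.53 to 0.39 for Srebf1, and none had an unadjusted p under 0.05.

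**Figure D3:**
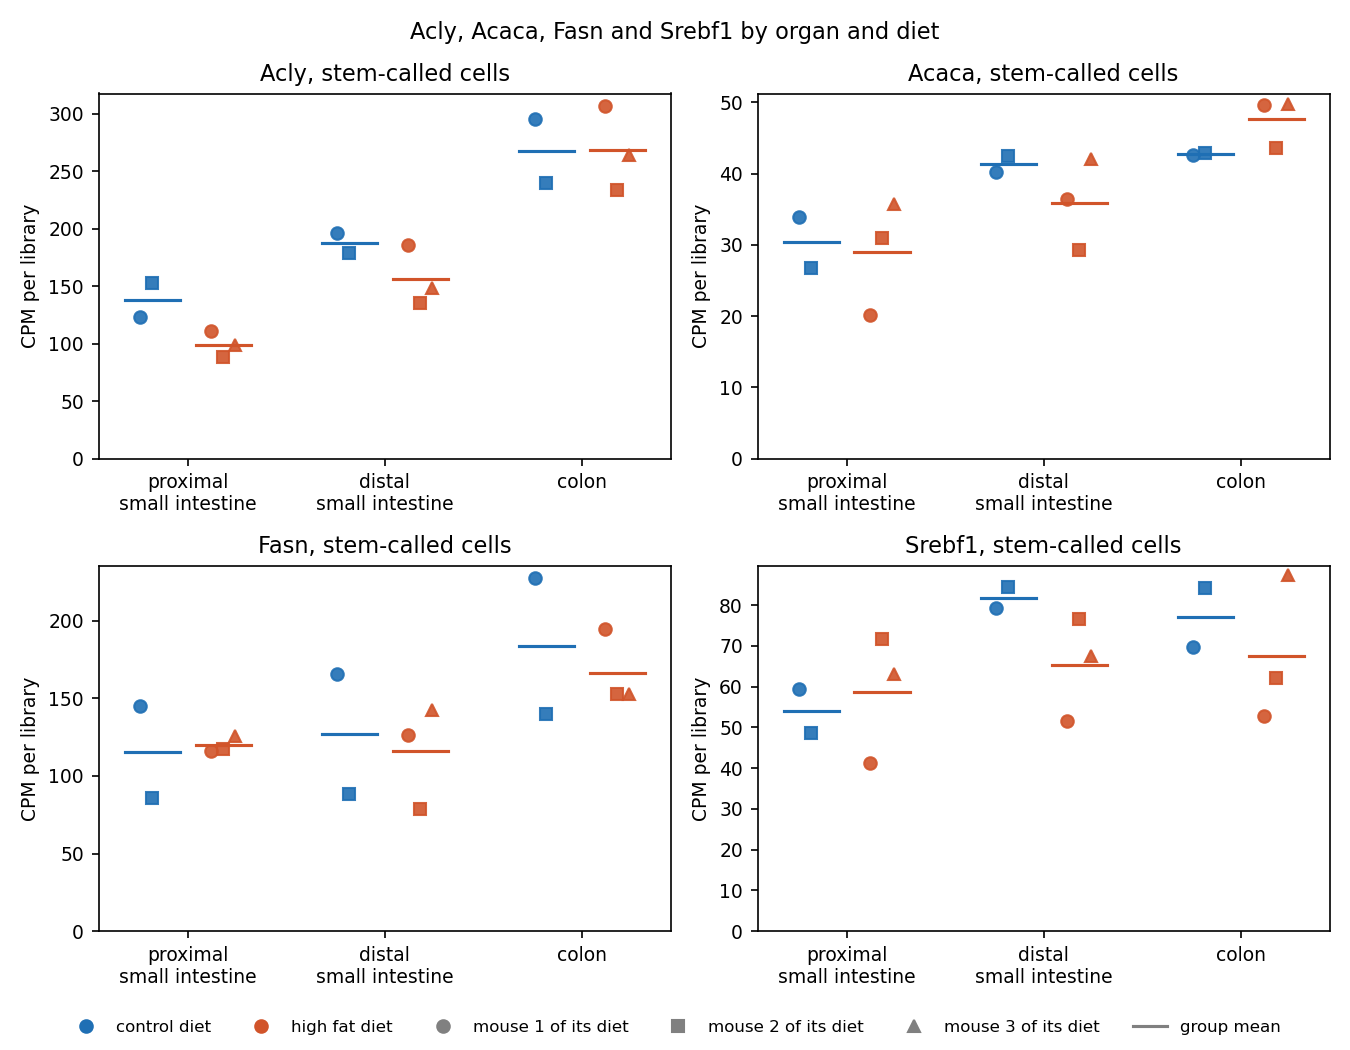
CPM of Acly, Acaca, Fasn and Srebf1 in stem-called cells of each library (axes start at 0), by organ and diet, with a marker per mouse and a line at the group mean. Acly is lowest in the proximal small intestine and highest in the colon, at 233 to 307 CPM, and the diets overlap in every organ for Fasn.

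The organs differed in several of these genes. In stem-called cells, with both diets weighted equally, colon minus small intestine was 1.78 for Me1 (SE 0.28, adjusted p = 0.000266), 0.90 for Acly (SE 0.11, adjusted p = 3.72e-05) and 1.55 for Acacb (SE 0.43, adjusted p = 0.0190), so 3 of the 6 members were called, all higher in the colon over the mean of the diets; 18% of all genes were called. Control mice alone held Me1 at 10.4 ± 2.02 CPM in the colon, 2.18 ± 0.755 in the distal and 1.19 ± 0.0320 in the proximal small intestine (SD, n = 2), while high fat mice held 14.3 ± 5.63, 2.45 ± 1.61 and 19.4 ± 5.89 CPM (n = 3). The organ with the highest Me1 thus was the colon in controls, and in high fat mice the proximal small intestine and the colon did not differ beyond their spread. Acacb stood at 12.8 ± 8.69 CPM in the colon, 1.84 ± 1.29 in the distal and 2.30 ± 0.356 in the proximal small intestine of controls, and at 18.9 ± 17.7, 12.4 ± 7.79 and 23.3 ± 11.6 CPM in high fat mice, where the organs overlapped. Acly stood at 268 ± 39.7 CPM in the colon, 188 ± 12.5 in the distal and 138 ± 21.0 in the proximal small intestine of controls, and at 268 ± 36.8, 156 ± 26.2 and 99.2 ± 11.3 CPM in high fat mice, the same order in each. Leaving out control mouse 1 or 2 ended the Acacb call (adjusted p = 0.175 and 0.0937). With the mouse as a block, Acaca (0.39, SE 0.11, adjusted p = 0.0206; without the block 0.0524) and Fasn (0.52, SE 0.10, adjusted p = 0.00101; without the block 0.0570) were called as higher in the colon too, and Srebf1 was not (0.20, adjusted p = 0.157). The fit with the mouse as a block called 26.6% of all genes there.

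Between the parts of the small intestine, 1 member was called, Acly, which was lower in the proximal part (proximal minus distal -0.57, SE 0.13, adjusted p = 0.0205; 5.46% of genes called). Leaving out control mouse 1, high fat mouse 2 or high fat mouse 3 ended it (adjusted p = 0.312, 0.0937 and 0.103). With the mouse as a block the adjusted p of Acly was 0.00189, and Acaca (-0.42, adjusted p = 0.0392) and Srebf1 (-0.41, adjusted p = 0.0181) were called lower in the proximal part as well; that fit called 10.8% of all genes. Me1 differed by 0.87 (adjusted p = 0.231) and Acacb by 0.81 (adjusted p = 0.672) when averaged over both diets.

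Me1 was lower in stem-called than in other cells of the same libraries. In the proximal small intestine the difference was -1.74 (SE 0.19, adjusted p = 1.41e-06), with the stem-called level at 24.0 to 120% of that in other cells and lower in 4 of 5 libraries. In the distal small intestine it was -1.30 (SE 0.25, adjusted p = 0.000294), lower in 5 of 5 libraries. In the colon it was -0.42 (SE 0.22, adjusted p = 0.141). These comparisons called 36.7%, 44% and 44.1% of all genes in proximal, distal and colon cells. Acacb was lower in distal stem-called cells (-0.57, SE 0.19, adjusted p = 0.0208), but not without high fat mouse 1 (adjusted p = 0.0610) or 3 (adjusted p = 0.141), nor when every cell was thinned to 3000 UMIs before the stem call (adjusted p = 0.318). Acly was lower in colon stem-called cells (-0.21, SE 0.07, adjusted p = 0.0261), a call that ended without control mouse 1 or 2 or high fat mouse 2 or 3 (adjusted p from 0.0566 to 0.0686) or without scaling factors (adjusted p = 0.101). Acaca, Fasn and Srebf1 were called in none of the 3 organs.

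The share of cells with an Me1 UMI, with every cell thinned to 3000 UMIs, followed the sums. In proximal absorptive-like cells it was 0.585 and 0.707% in control mice and 41.7% of 24, 35.2% of 409 and 31.6% of 348 cells in high fat mice. In proximal stem-called cells it was 0.165 and 0.324% against 6.35, 6.33 and 3.62%. Unthinned shares in stem-called cells were 1.32 and 1.46% against 14.5, 20.2 and 14.1% at median depths of 6870 to 19819 UMIs. Thinning left out 1 and 0 stem-called cells of the control and 18, 2 and 0 of the high fat mice. T cell-like cells, which are not epithelial, gave 0% of 47 and 0% of 27 cells in control mice (exact 95% upper limits 7.55 and 12.8%) and 0% of 20, 10.0% of 30 and 13.04% of 23 cells in high fat mice. The stem-called shares of high fat mice 2 and 3 lay below those of T cell-like cells in the same libraries, so they were not told apart from background. The T cell-like shares rested on 3 cells with a UMI each, with exact 95% intervals of 2.11 to 26.5% and 2.78 to 33.6% that hold the stem-called shares. In high fat mouse 1 the stem-called share lay above the 0% of T cell-like cells but under their exact upper limit (16.8%). The part of RNA from other cells in the stem-called sums was not tested. The absorptive-like share lay above the upper limit for T cell-like cells in high fat mice 1 and 2 and under it in mouse 3. For Acacb the thinned shares on the high fat diet were 4.17, 6.36 and 8.62% in absorptive-like, 9.52, 6.00 and 5.26% in stem-called and 5, 3.33 and 0% in T cell-like cells, with upper limits of 24.9, 17.2 and 14.8% in the last. All Acacb shares of the absorptive-like and stem-called cells lay under those limits. In mouse 1 the absorptive-like share lay below the T cell-like one, each on 1 cell with a UMI, and was not told apart from background.

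**Figure D4:**
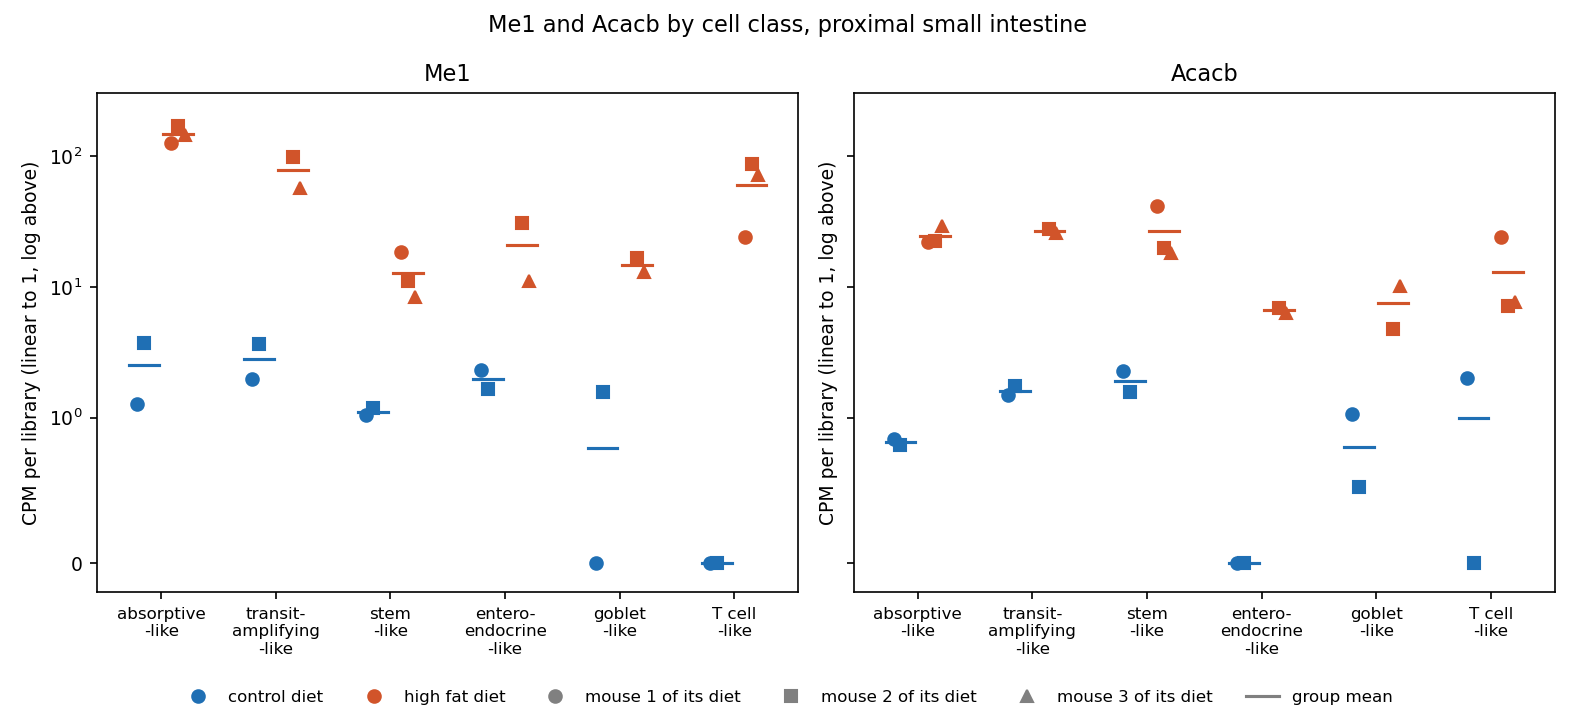
CPM of Me1 and Acacb by cell class in the proximal small intestine (axis linear up to 1 CPM and logarithmic above), a marker per mouse and a line at the group mean, for sums of at least 20 cells. High fat libraries lie above control libraries in each of the 6 classes, T cell-like cells included, and Me1 is highest in absorptive-like cells at 125 to 170 CPM.

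Other proximal classes, with no test, followed the same direction. Me1 was at 1.04 and 1.18 against 18.6, 10.98 and 8.42 CPM in stem-like clusters, at 2.31 and 1.66 against 30.5 and 11.1 CPM in enteroendocrine-like cells, and at 0 and 1.58 against 16.5 and 12.9 CPM in goblet-like cells. Acacb was at 2.26 and 1.57 against 41.5, 19.9 and 18.04 CPM in stem-like clusters and at 1.07 and 0.526 against 4.72 and 10.2 CPM in goblet-like cells. Tuft-like cells, chemosensory cells of the epithelium, held 44.8 CPM of Acacb in the 1 proximal control library with at least 20 of them and 111 CPM in the 1 high fat library. Tuft marker genes in the stem-called sums ranged from 67.8 to 71.4 CPM in proximal control and from 87.3 to 131 CPM in proximal high fat libraries with none of the 9 measured markers at 0, and their part in the Acacb values was not tested. Absorptive markers in the same sums, 14 of 14 measured and none at 0, ranged from 2717 to 2921 and from 2835 to 4031 CPM, and their part in the Me1 values was not tested. Acly was at 503 and 362 CPM on the control and 287 and 314 CPM on the high fat diet in proximal enteroendocrine-like cells, which secrete hormones. In proximal absorptive-like cells it was at 79.5 and 55.2 against 87.3, 41.2 and 50.5 CPM, below every enteroendocrine-like value.

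Around these members, 60 of 63 genes in 7 pathway lists were in the table and tested: citrate supply, other NADPH sources, partners of Me1, transcriptional control, control of the carboxylases, elongation and desaturation, and mitochondrial fatty acid synthesis. None was called higher in any diet comparison, and the calls were Scd2 and Scd1, stearoyl-CoA desaturases that make monounsaturated fatty acids, both lower and both in the list of elongation and desaturation (9 of 10 genes measured). Scd2 fell in the proximal small intestine from 106 ± 27.6 CPM (n = 2) to 19.2 ± 5.11 CPM (n = 3) in stem-called cells (log2 fold change -2.42, adjusted p = 0.00328), and its fold changes were -3.31 in other, -3.68 in transit-amplifying-like and -3.64 in absorptive-like cells (adjusted p = 0.00278, 0.0014 and 0.000378). In stem-called cells Scd2 missed the threshold when control mouse 1 or high fat mouse 2 was left out (adjusted p = 0.0703 and 0.0815), in other cells without control mouse 1 (adjusted p = 0.0515), in transit-amplifying-like cells without high fat mouse 2 (adjusted p = 0.149), and in absorptive-like cells in no such fit. Scd1 fell in distal absorptive-like cells from 44.8 ± 3.97 to 0.829 ± 0.757 CPM (-5.24, SE 0.47, adjusted p = 0.000887), and was called with any 1 mouse left out. In proximal absorptive-like cells Scd1 held 1.91 ± 0.289 CPM in control mice and 0 in all 3 high fat libraries (adjusted p = 0.0228, lost in 4 of 5 fits without a mouse). Medians over the 60 genes lay between -0.14 and 0.14 in the 10 diet comparisons, and those of all genes between -0.02 and 0.01.

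Mlxipl, which encodes the carbohydrate response factor ChREBP, was at 181 ± 48.0 CPM in control and 95.1 ± 11.7 CPM in high fat proximal stem-called cells (-0.90, SE 0.26, adjusted p = 0.451). The 12 other genes chosen for their level in their list included Cs, the citrate synthase, Tkt and Taldo1 of the pentose phosphate pathway, Ldha and Mdh2, Mbtps1, Prkab1 and Stk11, Hsd17b12, Mecr and Ndufab1. Their diet fold changes ran from -0.47 to 0.50, with no adjusted p below 0.863. In the colon against the small intestine, 10 of the 60 genes were called higher and 8 lower, beside 1323 higher and 902 lower of all 12339 genes tested, with Scd1 (2.99) and Scd2 (2.33) among the higher and Mlxipl (-1.20, adjusted p = 0.000165) among the lower.

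Across the 15 stem-called sums, which share mice across organs and differ in depth, the genes whose log2(CPM + 10) was most like that of Me1 included Gsta1 (Pearson r = 0.823), Anks6 (0.808), Abhd6 (0.807) and Nr1d1 (0.797). Anks6 was at 1.08 ± 0.187 CPM in proximal control and 10.9 ± 0.540 CPM in proximal high fat stem-called cells (SD, n = 2 and 3). Acacb was most like Scarb2 (0.950), Acot8 (0.837) and Actr10 (0.832). Acly was most like Trp53i11 (0.954), Hoxb7 (0.941) and H2-Ab1 (0.937), Acaca like Adam9 (0.898), Ptprj (0.895) and Mapk3 (0.857), Fasn like Flot1 (0.918), Abcc1 (0.907) and Tnks1bp1 (0.907), and Srebf1 like Pramef8 (0.860), 2210404O09Rik (0.826) and Cldn8 (0.821).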

How the data were processed

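The deposited values are raw UMI counts per gene and cell, whole numbers whose sums equalled the total in the authors' cell table for all 18919 cells. The genome build was mm10, per the submitters' processing notes; the aligner, the counting tool and the annotation are not given in the sources used here. The authors' cell table numbers the control mice 1 and 3, and its mouse 3 was taken as control mouse 2 of the titles by elimination. The values look as if the authors had removed genes rarely seen within a library, so a count of 0 was given no limit as a level. No cell was removed.

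Counts were summed per library over stem-called and over other cells. Cells were clustered with scanpy 1.11.5 and leidenalg 0.10.2 (2000 variable genes, 30 components, 15 neighbours, resolution 1), and each of the 35 clusters was named from marker lists where at least 3 markers were 2-fold higher; 10 clusters stayed unnamed and held 33.0% of cells. Scrublet called 242 doublets (1.28%), kept in the main analysis. Class sums needed 20 cells and left out stem-called cells for absorptive-like and transit-amplifying-like cells. The colon was not tested in these classes.

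Differences were tested with edgeR 4.0.16 (R 4.3.3; quasi-likelihood F test, TMM, filterByExpr, Benjamini-Hochberg over all genes tested, call at adjusted p under 0.05), after the code had been tested on simulated data. DESeq2 1.42.0 and limma 3.58.1 (voom) were alternatives, beside other scaling, no filter, 1 mouse left out, doublets removed, a call at 3000 UMIs, depth as a factor and each organ alone. The mouse pairs the organs because each mouse gave all 3. Deviations of stem-called sums from their group mean had r from 0.144 to 0.756 over 15 pairs of organs of 1 mouse. With 2 control mice the deviations mirror each other, so both mice gave the same r (0.511, 0.455 and 0.756). Mouse and depth cannot be told apart in these r. Genes named from pathway lists were those past the threshold in a diet comparison and the 2 of highest mean CPM per list. Some genes that these rules select are not reported here. The members and lists were chosen with earlier results of these data known. Mice are separate animals; intervals cover counting error only.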

Additional observations from a re-analysis of the deposited data

Results flagged for a closer look

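All 6 genes had UMIs in T cell-like cells, a class outside the tests, and Me1 and Acacb were flagged there. All high fat libraries lay above all control libraries there for Me1 in the proximal small intestine and for Acacb in both parts of the small intestine. This was not so for Me1 in the distal part, at 0 and 8.94 CPM in control against 0, 0 and 7.03 CPM in high fat mice, and in the colon both genes were listed at 0 in the 2 high fat libraries with at least 20 such cells, against 11.1 and 5.49 CPM of Me1 and 11.1 and 1.83 CPM of Acacb in control mice. Me1 in proximal T cell-like cells was at 0 and 0 CPM in control mice and 24.2, 86.2 and 71.1 CPM in high fat mice (mean 60.5 CPM, 21 to 30 cells a library). These values were 19.3, 50.6 and 49.4% of the Me1 level in absorptive-like cells of the same libraries. The 14 absorptive marker genes stood at a median of 12.8, 29.4 and 23.7% of their absorptive-like level in those T cell-like cells, and 9, 13 and 13 of them at a lower share than Me1. Acacb in proximal T cell-like cells averaged 12.98 CPM on the high fat diet against 2.00 and 0 CPM in control mice, and rested on 1, 3 and 3 cells with a UMI. Its values were 111, 32.03 and 26.2% of the Acacb level in absorptive-like cells of the same libraries. Acacb in distal T cell-like cells averaged 5.24 CPM on the high fat diet against 0 and 3.83 CPM in control mice. The source of these UMIs was not tested. Groups of 2 or 3 libraries are too small for a test of a sample that stands apart.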

How the results depend on the processing

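Over all alternatives, 1403 recomputed fold changes kept their direction and their side of the threshold, 47 lost a call, 25 gained one and 61 changed sign with no call on either side; no called value changed sign. Main counts of called members are in the report. DESeq2 called 2 members in proximal stem-called cells, 1 in each comparison of diet effects between organs, 2 in proximal and 1 in distal other cells. Over all genes it called 43, 4 and 8 of 12339 and 58 and 16 of 14307 there, in that order. Without a filter 2 were called in proximal stem-called cells, 1 in the proximal against distal diet effect and 2 in distal absorptive-like cells. limma voom called 2 in proximal other cells and 0 in distal transit-amplifying-like and absorptive-like cells. Over all genes it called 38 of 14307, 1 of 11324 and 2 of 10706 there, in that order. For the other settings named here only the range of all genes called is given, below. Distal absorptive-like cells had 0 with RLE factors, no scaling factors, doublets removed or the organ fitted alone. The organ alone gave 2 in proximal stem-called and other cells, and depth as a factor 2 in proximal stem-called cells. No scaling factors (chosen after seeing the data) gave 0 for stem-called minus other in the colon, and the call at 3000 UMIs gave 1 in the distal part.

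With a replicate block, the mouse for organs and the shared number for diets, 3 members were called between the small intestine parts and 5 in the colon against the small intestine. Across diets a number names different animals. Numbers follow the titles, and control mouse 2 is mouse 3 of the authors' cell table. Number 2 is thus not a number that the diets share in that table. Their deviations had r from 0.331 to 0.398 for mouse 1, within the range of organs of 1 mouse, and 0.0282 to 0.132 for mouse 2. What mouse 1 of both diets shared was not tested. The block by number called 2 members in proximal stem-called and other cells and 1 in distal stem-called and other cells. With no replicate block, stem-called minus other called 0 in the colon and 0 in each part of the small intestine.

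With 1 mouse left out, counts ran from 0 to 1 in proximal stem-called, proximal other, distal transit-amplifying-like and distal absorptive-like cells, between the small intestine parts and for stem-called minus other in the colon, and from 1 to 2 in proximal transit-amplifying-like and absorptive-like cells and for stem-called minus other in the distal part. Genes called over the whole table ran from 4 to 49 (main 15) in proximal stem-called, 1 to 58 (12) in proximal other, 0 to 9 (1) in distal stem-called, 0 to 16 (1) in distal other, 11 to 298 (78) in proximal absorptive-like, 2 to 96 (3) in distal absorptive-like, 5 to 192 (33) in proximal and 0 to 95 (7) in distal transit-amplifying-like cells, 305 to 1336 (674) between the small intestine parts, 1443 to 3281 (2225) in the colon against the small intestine, 0 to 1 and 0 to 10 (0 each) for diet in colon stem-called and other cells, 0 to 13 and 0 to 8 (0 each) for the diet effects between organs, and 1157 to 5889 (4970), 2098 to 6684 (5960) and 2714 to 6213 (5975) for stem-called minus other. The smallest stem-called sum, of the colon, held 27 cells and 321496 UMIs, which limits the precision there.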
